A study of Mus musculus with 23 samples.

Results

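Connexins are the proteins of gap junctions, and 8 connexin genes, Gja1, Gja4, Gja5, Gjb1, Gjb2, Gjb6, Gjc3 and Gjd2, were followed here out of 27178 genes in a bulk RNA-seq table of the mouse orbitofrontal cortex (OFC). They were chosen by symbol, from a list written with measured group differences of these data already known and with no stated threshold, so their levels and group differences are given as a description. All 8 were measured above 0 in each of the 23 libraries, and all 8 passed the filter on low values, which asked for 10 normalized counts in 5 libraries. Their mean normalized counts ran from 13.9 for Gja5 to 4444 for Gja1.

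Polyadenylated RNA was sequenced from virally infected OFC tissue of wild-type male C57BL/6J mice, whose age is given as 8 weeks. On day 0 the mice received an AAV6 vector in the OFC with the promoter of GFAP, an astrocyte gene, in front of either GFP alone or ZBTB7A, a zinc-finger transcription factor, together with GFP. On day 21 some mice met a subthreshold social defeat stress and the others served as controls, behaviour was tested from day 22 to day 27 and tissue was collected on day 28. The groups were GFP vector without stress (GFP control, n = 5), GFP vector with stress (GFP stress, n = 8), ZBTB7A vector without stress (ZBTB7A control, n = 5) and ZBTB7A vector with stress (ZBTB7A stress, n = 5). All 23 libraries therefore came from mice that had received a vector with GFP and the behavioural tests. The treatment label mentions the stress for every library, and the groups follow the separate label for the stress condition. The tissue was dissected and not sorted, so each value mixes all cell types of the piece, and fewer cells of a type cannot be told apart from less RNA per cell. The labels do not say that each library is a separate mouse, so p-values measure the spread between these libraries, which may be technical.

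Libraries held 12.5 to 51.9 M recovered reads, with a median of 22.7 M, and are named by group and the number in their title. Counting upward, those numbers cover all 4 groups 3 times over, which gives number runs of 8, 7 and 8 libraries. Differences are also given within runs. Number run 1 holds 1 ZBTB7A control library, number run 2 holds 1 ZBTB7A stress library and number run 3 holds 1 GFP control library. A within-run difference that uses such a group rests on that library. Zbtb7a, the gene of the vector's name, lay at 3033 to 4666 normalized counts in the GFP control libraries and 3681 to 4330 in the GFP stress libraries, and at 3357 to 3955 and 3470.1 to 3899 in the corresponding ZBTB7A libraries. Libraries labelled ZBTB7A were thus no higher in this gene, and every direction below is between labelled groups. The species of the inserted gene is not given in the labels. The level of striatal neuron markers, genes of a neighbouring brain region, ranged from 6860 to 145212 summed normalized counts across libraries. All marker genes of astrocytes, oligodendrocytes and excitatory neurons, the cells that cortex should hold, had a mean of 10 or more.

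Connexin subunits form a ring in the membrane, and rings of neighbouring cells dock into a channel that passes ions and small molecules. In brain the family is divided by cell type: Gja1 (Cx43) and Gjb6 (Cx30) join astrocytes into a network, Gjb1 (Cx32) serves oligodendrocytes, and Gjd2 (Cx36) forms electrical synapses between neurons, many of them inhibitory. Gja4 (Cx37) and Gja5 (Cx40) are known from blood vessels, Gja5 mainly from arterial endothelium, and Gjb2 (Cx26) from the meninges as well as astrocytes. Gjc3 (Cx29) is found in myelinating glia.

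Promoter sequence is shown for the 2 genes that varied together most closely, Gjb1 and Gjc3, and for Gja5, the gene with the widest difference between groups. All 8 genes were matched by symbol in a RefSeq table of build GRCm38.p6, with 11 annotated start sites in all, and the 250 bases before each start were searched. The motifs ACAAAG and ACAATG, letters bound by SOX transcription factors such as the myelin regulator SOX10, were searched on both strands; the motifs do not overlap each other in these windows. Capitals mark the matches, and each sequence reads 5′ to 3′ toward the start site. The Gjb1 window is chrX:101383482-101383731 on the plus strand, the most downstream of its 4 starts, the Gjc3 window is chr5:137963099-137963348 on the minus strand, and the Gja5 window is chr3:97032152-97032401 on the plus strand.
Gjb1: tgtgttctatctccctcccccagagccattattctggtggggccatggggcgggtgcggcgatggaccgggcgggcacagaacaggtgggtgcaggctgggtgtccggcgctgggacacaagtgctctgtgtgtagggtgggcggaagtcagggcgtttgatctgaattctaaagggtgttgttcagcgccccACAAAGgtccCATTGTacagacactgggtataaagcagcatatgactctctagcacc
Gjc3: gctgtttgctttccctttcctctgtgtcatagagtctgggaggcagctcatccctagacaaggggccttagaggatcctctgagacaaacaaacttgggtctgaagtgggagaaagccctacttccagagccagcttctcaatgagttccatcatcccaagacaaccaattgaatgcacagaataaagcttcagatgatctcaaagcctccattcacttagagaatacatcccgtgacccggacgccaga
Gja5: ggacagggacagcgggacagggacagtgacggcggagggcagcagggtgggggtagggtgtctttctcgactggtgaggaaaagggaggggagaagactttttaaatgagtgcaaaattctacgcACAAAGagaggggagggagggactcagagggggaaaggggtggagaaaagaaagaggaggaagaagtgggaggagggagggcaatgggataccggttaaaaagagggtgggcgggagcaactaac
The Gjb1 window held 2 matches, beginning at positions -57 and -47 relative to the start, with ACAAAG on the printed strand and ACAATG on the other, where it is printed as CATTGT. The Gja5 window held 1 match, at position -125, and the Gjc3 window held none. Another Gjb1 start had 1 match, and the other 7 windows of the family had none. Of all 32841 windows of this length in the table, 25.24% held at least 1 match. The matches are descriptions of these letters only. The Gjb1 window contained 10 CpG pairs and the Gjc3 window 3, against a median of 6 over all windows. The remaining Gjb1 windows contained 2, 1 and 4 CpG pairs, with 1, 0 and 0 matches. The printed Gjb1 window thus had the most of both among its 4 starts, and its difference from Gjc3 depends on that choice.

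**Figure D1:**
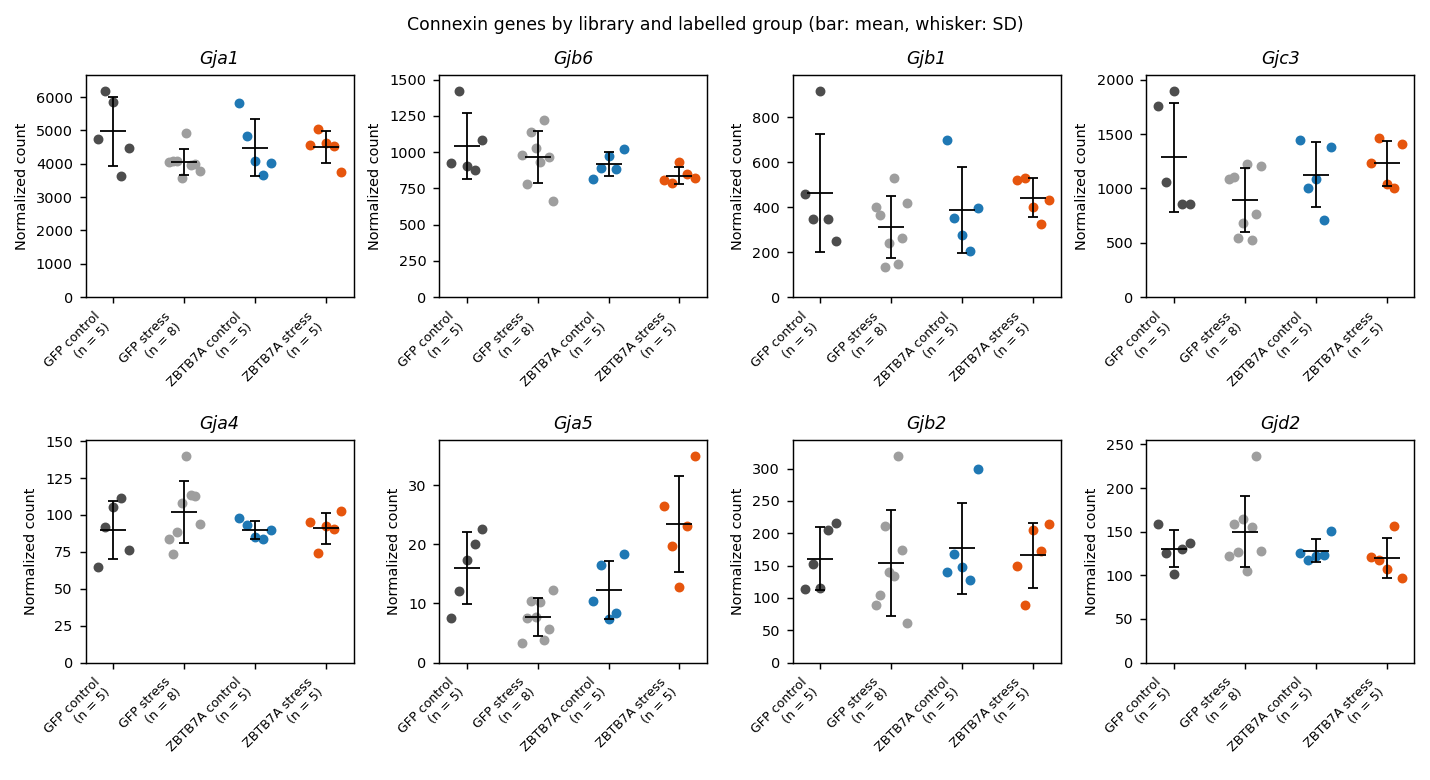
Normalized count of each connexin gene (y axis, from 0) in every library, by labelled group (x axis), with 1 point per library, a bar at the group mean and whiskers of 1 SD. Gja5 in ZBTB7A stress sits between 12.9 and 34.9, above all GFP stress libraries, while the groups of the other genes overlap.

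Levels can be compared between genes only per length, here as the normalized count per kilobase of exon in the GENCODE annotation. The length joins the exons of all annotated transcripts, 10.257 kb for Gja1 and 5.746 kb for Gja5. The scale and the order of genes therefore depend on that annotation. On that scale Gja1 was highest with a mean of 433 ± 71.6 (SD, n = 23), followed by Gjb6 at 353 ± 60.8, Gjc3 at 253 ± 81.2 and Gjb1 at 229 ± 103. Gjb2 at 67.8 ± 26.3, Gja4 at 56.0 ± 9.73 and Gjd2 at 46.7 ± 10.3 made up a lower tier, and Gja5 was lowest at 2.42 ± 1.38. Astrocyte and oligodendrocyte connexins thus stood above those of vessels, meninges and neurons. Each neighbouring pair in this order overlapped in range except Gjd2 and Gja5, where Gjd2 was higher in 23 of 23 libraries. The genes also differed in how much they varied between libraries. The SD of the log2 level was 0.79 for Gja5, 0.64 for Gjb1, 0.56 for Gjb2 and 0.48 for Gjc3. It was 0.28 for Gjd2, 0.24 for Gja4 and Gjb6 and 0.23 for Gja1, against a median of 0.19 over the 16385 tested genes. Gja5 had only 2 to 67 reads per library, and the part of counting noise in its SD was not tested.

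The 6 comparisons asked whether the vector made a difference (in unstressed mice, in stressed mice and on average), whether stress made one under each vector, and whether the vector and stress effects interacted. They share groups, so each comparison's values stand on their own. None of the 8 connexins passed limma's test at a Benjamini-Hochberg adjusted p under 0.05 in any of them, and neither did any of the 16385 genes (0%). At an unadjusted p under 0.05, limma counted 2 of 8 connexins for the vector with stress, where 16.1% of all genes were counted. The corresponding counts were 0 of 8 for the vector without stress (1.73% of all genes), 1 of 8 averaged over stress (6.07%), 3 of 8 for stress under GFP (11.2%), 1 of 8 for stress under ZBTB7A (1.66%) and 1 of 8 for the interaction (7.42%). With edgeR the count at an adjusted p under 0.05 was also 0 in all 6 comparisons. DESeq2 called 1 connexin, Gja5, in ZBTB7A stress against GFP stress, among 46 genes (0.281%). For the other 5 comparisons it called 0 of the 8 connexins and, over all genes, 0% for the vector without stress, 0.0427% averaged, 0.238% for stress under GFP, 0.0061% for stress under ZBTB7A and 0.0183% for the interaction. The median log2 difference of the 8 genes was -0.15 for the vector without stress, 0.18 with stress and 0.082 averaged, -0.22 for stress under GFP, 0.017 for stress under ZBTB7A and 0.19 for the interaction. Over all tested genes the medians were -0.011, 0.0053, -0.0017, -0.0053, 0.0056 and 0.011. For the vector with stress the median of the 8 genes was 0.018 with the striatal level as a covariate, -0.0094 with the oligodendrocyte level and 0.021 with the mural level. For stress under GFP it was -0.20, -0.061 and -0.15 in the same fits.

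**Figure D2:**
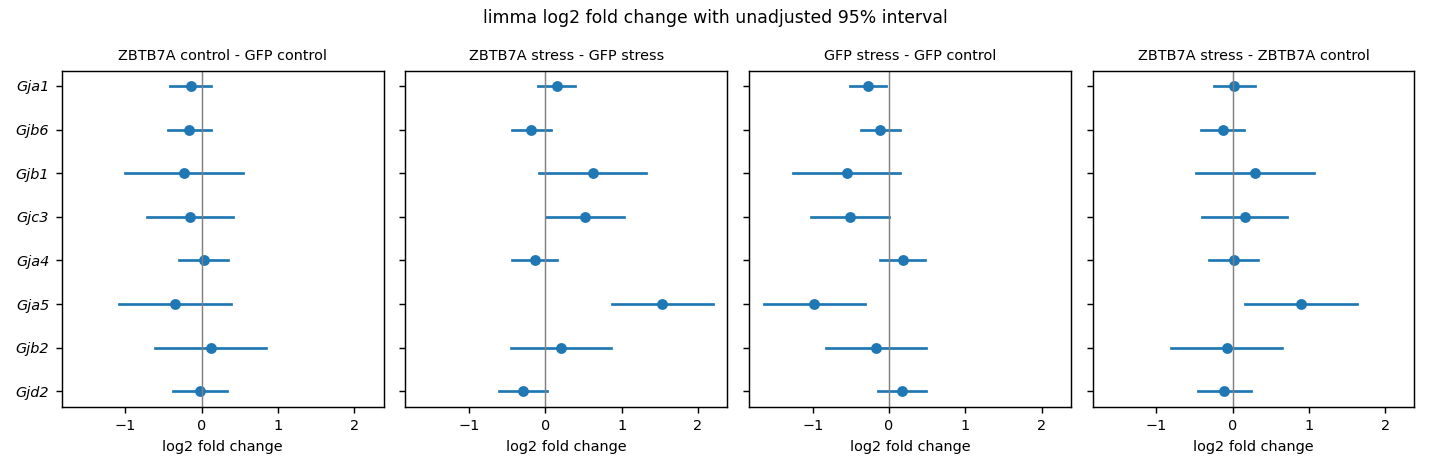
Log2 fold change from limma (x axis) of the 8 connexin genes (rows) in 4 comparisons (panels), with the estimate as a point and the unadjusted 95% interval as a line. The interval of Gja5 lies at 0.87 to 2.19 between the stressed groups and at -1.64 to -0.32 for stress under GFP, and no gene had an adjusted p under 0.05.

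Gja1 encodes the main astrocyte connexin and lies on chromosome 10 (GRCm38, 56377330 to 56402513, plus strand). Its normalized counts in GFP control were 4745, 6179.9, 5839, 3633 and 4477, with a mean of 4975 ± 1037 (SD, n = 5). In GFP stress the lowest, median and highest of 8 libraries were 3560.0, 4015 and 4929, with a mean of 4054 ± 396. The GFP stress libraries were packed near the low end of the GFP control range, and the groups overlapped. ZBTB7A control had 5810.1, 4835, 4081, 3650 and 4016, with a mean of 4478 ± 860.1 (n = 5). ZBTB7A stress had 4549, 5052, 4613, 4542 and 3755, with a mean of 4502 ± 468 (n = 5). The highest ZBTB7A control library stood near the top of GFP control, and the rest of both ZBTB7A groups lay within the GFP range. Stress under GFP gave a log2 difference of -0.28 ± 0.12 (SE) and a fold of 0.826 (95% interval 0.699 to 0.977, adjusted p = 0.411). Within the number runs that difference was -0.41, -0.14 and -0.20. Between the stressed groups the log2 difference of Gja1 was 0.15 ± 0.12 (adjusted p = 0.512). With the oligodendrocyte level as a covariate these values were -0.14 ± 0.11 for stress under GFP and 0.024 ± 0.11 between the stressed groups, and with the striatal level -0.19 ± 0.13 and 0.033 ± 0.14 (adjusted p = 0.905 to 1.00). Markers of choroid plexus and ependyma, the lining of the ventricles, separated the GFP groups: their mean centred log2 level was 0.75 to 3.03 in GFP control and -1.43 to 0.15 in GFP stress. All 8 of these markers had a mean of 10 or more over the 23 libraries, with Otx2 at 0 in at least 1 library; their summed level was 955 to 9277 and 199 to 934 normalized counts, and r with Gja1 was 0.59. These markers also had r = 0.62 with Gjc3 and 0.59 with Gjb1, and -0.27 (Gja4) to 0.14 (Gja5) with the remaining connexins. The stress comparison under GFP is between these same groups for every connexin. The part of these markers in those differences was not tested, for Gja1 or any other connexin.

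Gjb6, the partner connexin of astrocytes, lies on chromosome 14 (57123303 to 57133611, minus strand), beside Gjb2. Under GFP its mean was 1043 ± 226 without stress (n = 5) and 965 ± 180 with stress (n = 8), and under ZBTB7A it was 917 ± 81.1 and 838 ± 57.4 (n = 5 each). All groups overlapped, and GFP control 2, at 1421, was the highest library. The log2 difference averaged over stress was -0.17 ± 0.09 between vectors (adjusted p = 0.767), and -0.18 ± 0.12 between the stressed groups (adjusted p = 0.452). No relation within the astrocyte pair was detectable over libraries: the correlation of Gja1 with Gjb6 was r = 0.16 (permutation p = 0.48, adjusted 0.616 over 28 pairs), with Spearman's rho of -0.027. Without the 2 libraries farthest in Gja1 it was -0.17. The ratio of Gja1 to Gjb6 counts was 4.84 ± 0.98 and 4.34 ± 0.94 in the GFP control and stress groups and 4.96 ± 1.35 and 5.39 ± 0.71 in the ZBTB7A control and stress groups.

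Gja1 followed the level of 10 astrocyte markers, taken as the mean of their centred log2 values, and Gjb6 did not do so detectably. For Gja1 r was 0.80 and rho 0.80 over 23 libraries, with an adjusted permutation p of 2.67e-05 over the 8 genes, which rests on the smallest p that 100000 permutations can give, 1e-05. Within the number runs r was 0.75, 0.95 and 0.64, and without the 2 libraries farthest in marker level it was 0.69. A high r was not particular to astrocyte markers. Gja1 also had 0.76 with oligodendrocyte precursor, 0.74 with microglia and 0.62 with oligodendrocyte markers, and -0.64 with excitatory neuron markers. Its remaining lists lay between -0.34 and 0.59. For Gjb6 r was 0.17 (adjusted permutation p = 0.452) and rho 0.11, with 0.17, -0.42 and 0.49 within runs and 0.32 without the 2 farthest libraries. The summed level of the astrocyte markers stayed between 100559 and 129829 normalized counts in all groups. Among 13416 genes with a mean of 50 or more, those most like Gja1 by r were Sdc4 at 0.94, Ezr at 0.91 and Mlc1 at 0.89. Sdc4 is a cell-surface proteoglycan, Ezr links membrane to actin, and Mlc1 is a membrane protein of astrocyte end-feet. Those most like Gjb6 were Eya1 at 0.80, the endothelial marker Ly6c1 at 0.77 and Sult1a1 at 0.76.

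Gjb1, the classical connexin of myelinating cells, is on chromosome X (101376378 to 101385629, plus strand). In GFP control its counts were 459, 346, 917, 349 and 248, with a mean of 464 ± 264 (n = 5). In GFP stress the lowest, median and highest were 135, 314 and 531, with a mean of 313 ± 139 (n = 8). One GFP control library, number 10, stood far above the rest, and GFP stress 5 and 20 were the lowest of all. ZBTB7A control had 701, 351, 278, 207 and 397 (387 ± 189.8, n = 5), and ZBTB7A stress had 523, 531, 401, 326 and 434 (443 ± 86.0, n = 5). The ZBTB7A stress libraries all lay inside the upper part of the GFP stress range. The log2 difference between the stressed groups was 0.62 ± 0.34 (adjusted p = 0.358), and stress under GFP gave -0.56 ± 0.34 (adjusted p = 0.538). Within the number runs the former was 0.96, 0.16 and 0.56 and the latter -0.56, -0.65 and 0.033.

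Gjc3, the myelinating-glia connexin on chromosome 5 (137953461 to 137963098, minus strand), showed the same order of groups. Its counts were 1759, 1059.6, 1896, 858 and 856 in GFP control (1286 ± 504, n = 5). In GFP stress the lowest, median and highest were 530.0, 928 and 1223 (894 ± 294, n = 8). GFP stress 5 and 20, the lowest for Gjb1, were also lowest for Gjc3, and GFP control 10 was again highest. The counts were 1442, 1002, 1088, 711 and 1383 in ZBTB7A control (1125 ± 298, n = 5) and 1236, 1468, 1038, 1008 and 1407 in ZBTB7A stress (1232 ± 208, n = 5). The groups overlapped in every comparison. Gjc3 was higher in ZBTB7A stress than in GFP stress by 0.52 ± 0.24 (log2), which is a fold of 1.43 (95% interval 1.01 to 2.04, adjusted p = 0.303). Under GFP its stress difference was -0.51 ± 0.24 (adjusted p = 0.442). Within the runs these were 0.64, 0.18 and 0.59, and -0.65, -0.48 and -0.12.

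Of the 28 pairs among the 8 genes, 1 passed at an adjusted permutation p under 0.05, and it was Gjb1 with Gjc3. Their correlation was r = 0.92 and rho = 0.91 over 23 libraries (adjusted permutation p = 0.00028), 0.88 without the 2 libraries farthest in Gjb1, and 0.91, 0.91 and 0.98 within the runs. After centring on group means it was 0.91. The ratio of Gjb1 to Gjc3 counts was 0.353 ± 0.091 and 0.338 ± 0.056 in the GFP control and stress groups and 0.334 ± 0.091 and 0.361 ± 0.047 in the ZBTB7A control and stress groups. The groups thus differed less in this ratio than libraries did within a group.

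Both genes tracked the level of 10 oligodendrocyte markers. For Gjb1 r was 0.97 and rho 0.95, and for Gjc3 r was 0.96 and rho 0.94, with an adjusted permutation p of 2.67e-05 for each. Within runs the values were 0.98, 0.98 and 0.96 for Gjb1 and 0.96, 0.97 and 0.98 for Gjc3, and without the 2 farthest libraries 0.95 and 0.94. The summed oligodendrocyte markers, led by Mbp, ranged from 91026 to 261652 normalized counts in GFP control and from 44499 to 161450 in GFP stress. The ranges were 69057 to 203390 in ZBTB7A control and 99766 to 168887 in ZBTB7A stress. All 10 markers had a mean of 10 or more over the 23 libraries, and none was at 0. With the oligodendrocyte level as a covariate, the log2 difference between the stressed groups was -0.065 ± 0.091 for Gjb1 (adjusted p = 0.985) and 0.036 ± 0.084 for Gjc3 (adjusted p = 0.989). For stress under GFP it was 0.19 ± 0.09 and 0.015 ± 0.086 (adjusted p = 1.00 for both). Without the 5 libraries farthest from the median striatal level, the difference between the stressed groups was 0.04 for Gjb1 and 0.08 for Gjc3. Those libraries were GFP stress 5, 12, 20 and 21 and ZBTB7A control 6, so of the stressed groups only GFP stress lost libraries. GFP stress 5 and 20 were the lowest for both genes. The genes most like Gjb1 were Pllp, a myelin membrane protein, Mag, the myelin-associated glycoprotein, and the protease gene Adamts4, each at r = 0.98. For Gjc3 they were the oligodendrocyte marker Ermn at 0.98, the tetraspanin gene Tspan2 at 0.98 and the receptor gene Gpr37 at 0.97.

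**Figure D3:**
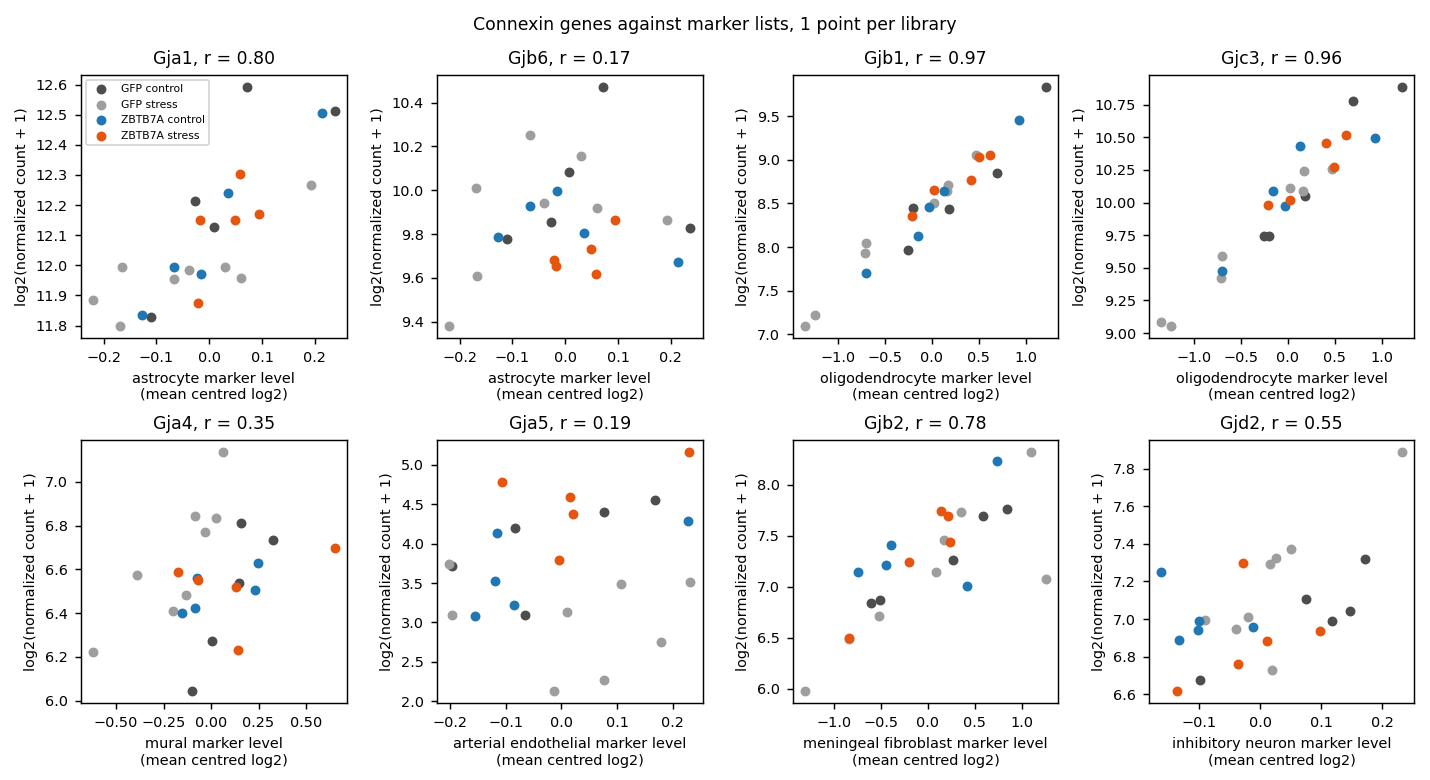
Log2(normalized count + 1) of each connexin gene (y axis) against the mean centred log2 level of the marker list paired with it (x axis), with 1 point per library coloured by group. Gjb1 and Gjc3 lie on a tight line against oligodendrocyte markers (r = 0.97 and 0.96), and Gja5 is scattered against arterial endothelial markers (r = 0.19).

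Gja5 was the vascular connexin with the widest differences between groups. The annotation places it on chromosome 3 (96904693 to 97077416, plus strand), with an outer end far upstream of the RefSeq start used above. Its counts were 7.56, 12.1, 17.3, 20.1 and 22.6 in GFP control (15.9 ± 6.09, n = 5). In GFP stress the lowest, median and highest were 3.35, 7.64 and 12.3 (7.64 ± 3.23, n = 8). In ZBTB7A control the counts were 10.5, 16.6, 7.44, 8.34 and 18.5 (12.3 ± 4.96, n = 5), and in ZBTB7A stress 26.6, 19.8, 12.9, 23.1 and 34.9 (23.4 ± 8.17, n = 5). All 5 ZBTB7A stress libraries stood above all 8 GFP stress libraries, though the lowest of the first exceeded the highest of the second by little. No other pair of groups was separated for Gja5, and no other connexin was separated in any of the 4 comparisons between groups. Groups did not overlap, with the higher values in ZBTB7A stress, for 75 of the 16385 genes (0.458%), and with the lower values there for 0.543%. In the comparisons where no connexin was separated, the shares of all genes that were higher or lower without overlap were 0.116% and 0.11% between the unstressed groups. They were 0.116% and 0.256% for GFP stress against its control, and 0.244% and 0.177% for ZBTB7A stress against its control.

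Between the stressed groups the log2 difference of Gja5 was 1.53 ± 0.32, which is a fold of 2.89 (95% interval 1.83 to 4.57). The limma p was 8.3e-05 unadjusted and 0.183 after adjustment over all genes. DESeq2 on recovered reads gave a log2 difference of 1.68 with an adjusted p of 0.0132, and edgeR gave 1.66 with an adjusted p of 0.192, so the call rests on the tool. Over all alternatives the value stayed between 1.16 and 1.72, with adjusted p-values from 0.0132 to 0.998. Within the number runs it was 1.67, 0.48 and 1.96 (number run 2 has 1 ZBTB7A stress library against 2 of GFP stress). For stress the log2 difference was -0.98 ± 0.32 under GFP (adjusted p = 0.326) and 0.89 ± 0.35 under ZBTB7A (adjusted p = 1.00). The interaction, the test of the difference between these, was 1.87 ± 0.48 (adjusted p = 0.668). Without stress, ZBTB7A control differed from GFP control by -0.34 ± 0.35 (adjusted p = 1.00).

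Gja5 rested on few reads, 2 to 67 in a library and 381 in all 23. In GFP stress the reads numbered 2 to 17 per library. Its exons share 165 bases with Gpr89 on the opposite strand, and the library kit does not mark strand, so reads in the shared stretch cannot be assigned to one gene. With a log2 scale of the count plus 5 in place of 1, the difference between the stressed groups was 1.16.

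Levels of vessel cells and of striatal neurons were set beside Gja5. Its correlation with 8 arterial endothelial markers was 0.19 (adjusted permutation p = 0.443, rho 0.20), with -0.029, 0.12 and 0.28 within runs and 0.07 without the 2 farthest libraries. The summed arterial markers were at 3483 to 4114 in GFP stress and 3822 to 4281 in ZBTB7A stress, and the summed mural markers, of smooth muscle and pericytes, at 2221 to 3437 and 3096 to 4653. All 8 arterial and all 9 mural markers had a mean of 10 or more over the 23 libraries. The summed striatal markers were at 6860 to 54687 in GFP stress and 35552 to 95070 in ZBTB7A stress. With the mural level as a covariate the log2 difference of Gja5 between the stressed groups was 1.34 ± 0.36 (adjusted p = 0.616), with the striatal level 1.29 ± 0.38 (adjusted p = 0.998), and without the 5 libraries farthest in striatal level 1.43 ± 0.39 (adjusted p = 0.802). The genes most like Gja5 were Mapk1ip1l at r = 0.82, the adhesion gene Kirrel at 0.75 and Ntn1, which encodes the guidance cue netrin, at 0.73.

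Gja4, the other vascular connexin, is on chromosome 4 (127311421 to 127314039, minus strand) and had overlapping groups in every comparison. Its mean under GFP was 89.9 ± 19.5 without stress (n = 5) and 101.9 ± 21.1 with stress (n = 8), and under ZBTB7A 89.9 ± 5.98 and 91.1 ± 10.5 (n = 5 each). GFP stress 13, at 139.7, was the highest library and GFP control 1, at 64.9, the lowest. The log2 difference between the stressed groups was -0.14 ± 0.14 (adjusted p = 0.618), and for stress under GFP it was 0.18 ± 0.14 (adjusted p = 0.633). With the mural level as a covariate these were -0.35 ± 0.13 (adjusted p = 0.616) and 0.37 ± 0.13 (adjusted p = 0.791). No relation between Gja4 and Gja5 was detectable at this depth (r = -0.0084, permutation p = 0.97, adjusted 0.97, rho 0.043). The ratio of Gja5 to Gja4 counts was 0.077 ± 0.036 in GFP stress and 0.256 ± 0.073 in ZBTB7A stress, and 0.178 ± 0.071 and 0.135 ± 0.052 in the GFP and ZBTB7A controls. With mural markers Gja4 had r = 0.35 (adjusted permutation p = 0.136, rho 0.38), and 0.37, 0.44 and 0.15 within runs. After both were centred on their group means r was 0.63 (adjusted permutation p = 0.00192). That permutation shuffled libraries across groups and did not allow for the centring, so its p can be too small. Without the 2 farthest libraries the uncentred r was 0.21. Over the 12 lists Gja4 was most correlated with endothelial markers, at r = 0.59. The genes most like it were Cd248, a surface protein of pericytes and fibroblasts, at 0.78, the receptor gene Cntfr at 0.75 and the semaphorin gene Sema4b at 0.75.

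Gjb2, on chromosome 14 (57098600 to 57104702, minus strand), varied 5.17-fold between libraries, from 61.7 in GFP stress 22 to 319 in GFP stress 20. Group means were close, at 161 ± 48.4 (control, n = 5) and 154 ± 81.8 (stress, n = 8) under GFP, and 177 ± 70.4 and 166 ± 50.2 under ZBTB7A (n = 5 each). Both extremes lay within 1 group. The log2 difference between the stressed groups was 0.21 ± 0.31 (adjusted p = 0.755), and that for stress under GFP -0.17 ± 0.31 (adjusted p = 0.857). Both values moved widely with the fit. Between the stressed groups the difference was 0.62 ± 0.28 with the oligodendrocyte level (adjusted p = 0.985), 0.70 ± 0.34 with the striatal level (adjusted p = 0.998), 0.76 ± 0.30 without the 5 libraries farthest in striatal level (adjusted p = 0.802) and -0.083 ± 0.34 with the mural level (adjusted p = 0.950). For stress under GFP the same fits gave -0.62, -0.54, -0.72 and 0.093, with adjusted p-values of 0.871 to 1.00. Gjb2 tracked meningeal fibroblast markers, with r = 0.78 and rho = 0.74 (adjusted permutation p = 1e-04 for r). The relation was 0.86 and 0.91 in number runs 1 and 3 and 0.19 in number run 2, and it was 0.85 without the 2 farthest libraries. The summed meningeal markers, led by Igf2, ran from 1220.5 to 25036 normalized counts within GFP stress. All 10 meningeal markers had a mean of 10 or more over the 23 libraries. The genes most like Gjb2 were the transporter genes Slc22a6 and Slc6a13 and the retinoic acid enzyme gene Aldh1a2, each at r = 0.89, and the last 2 belong to the meningeal list. Gjb2 with Gjb6, its neighbour on the chromosome, had r = 0.55 (permutation p = 0.00632, adjusted 0.059), rho = 0.49, and 0.49, -0.35 and 0.86 within runs. Without the 2 libraries farthest in Gjb2 it was 0.30.

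Gjd2, the connexin of electrical synapses, is on chromosome 2 (114009601 to 114013619, minus strand). Its mean under GFP was 131 ± 20.7 without stress (n = 5) and 149.8 ± 40.7 with stress (n = 8), and under ZBTB7A 128 ± 13.3 and 119.8 ± 22.5 (n = 5 each). GFP stress 21 was highest at 236 and ZBTB7A stress 26 lowest at 96.9. The log2 difference between the stressed groups was -0.30 ± 0.15 (adjusted p = 0.333), and within the number runs it was -0.18, -0.29 and -0.44. It was -0.12 ± 0.18 with the striatal level as a covariate, -0.19 ± 0.16 with the oligodendrocyte level and -0.11 ± 0.15 without the 5 libraries farthest in striatal level. Its correlation with 7 inhibitory neuron markers was r = 0.55 and rho = 0.48 (adjusted permutation p = 0.0093 and 0.0339), and 0.40, 0.47 and 0.73 within runs. It rested on few libraries: without the 2 farthest in marker level r was 0.27 (adjusted permutation p = 0.325), and without GFP stress 21 it was 0.36 (adjusted permutation p = 0.138). The genes most like Gjd2 were Trh, which encodes a releasing hormone, at 0.82, Naa20 at 0.81 and Doc2g at 0.79. Exons of Gjd2 overlap a transcript on the opposite strand, A530058N18Rik, over 2 short stretches of 57 and 18 bases.

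**Figure D4:**
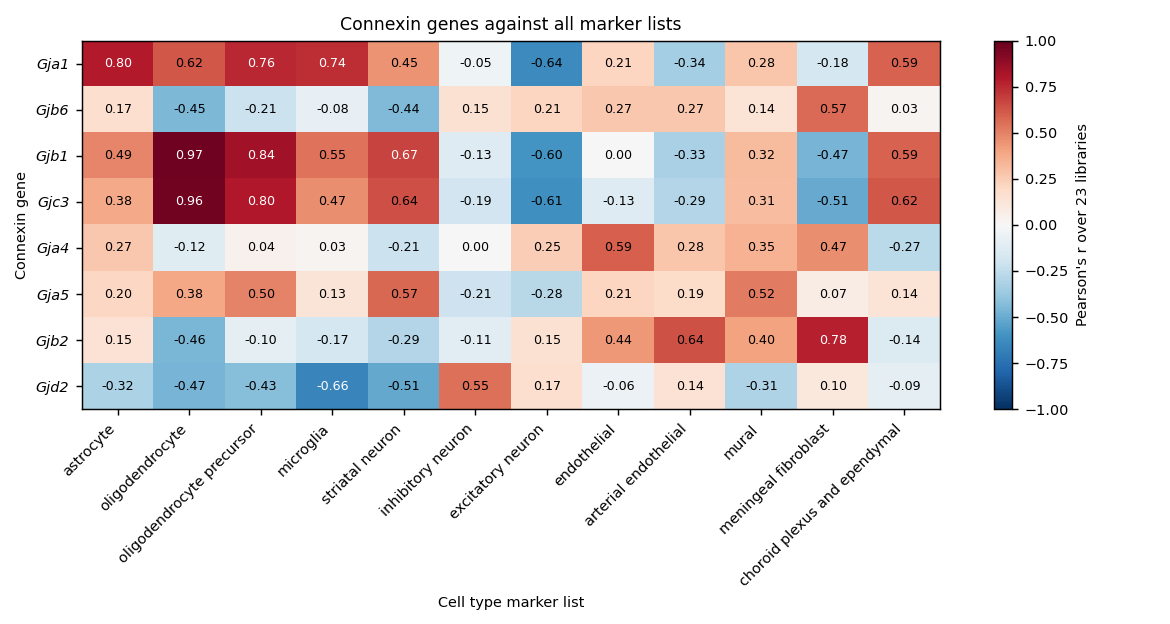
Pearson's r over 23 libraries between each connexin gene (rows) and the level of each of 12 cell type marker lists (columns), coloured from -1 to 1. Gjb1 and Gjc3 share a pattern across lists, with 0.97 and 0.96 for oligodendrocytes, while Gja1 and Gjb6, both astrocyte genes, have 0.80 and 0.17 for astrocytes.

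Each gene was paired with a list from knowledge of the family, but the lists were chosen with earlier results of these data known. Across all 12 lists, as a description without a test, the paired list had the highest r for Gja1, Gjb1, Gjc3, Gjb2 and Gjd2. For Gjb6 the highest was meningeal fibroblasts (0.57), for Gja5 striatal neurons (0.57) and for Gja4 endothelium (0.59). Gja5 also had r = 0.52 with mural markers. By size, Gjd2 had a larger r with microglia (-0.66) than with inhibitory neurons (0.55), and it had -0.51 with striatal neurons. With oligodendrocyte precursors r was 0.84 for Gjb1 and 0.80 for Gjc3. All these lists share the same libraries, and several of their levels vary together.

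Of the remaining gap junction genes on the list, 13 of 23 could be tested: 3 of 12 other connexins, 2 of 3 pannexins and all 8 proteins that bind or regulate connexins. None passed limma's test in any comparison. At an unadjusted p under 0.05 they numbered 3 of 13 for the vector with stress (16.1% of all genes), 2 for stress under GFP (11.2%), 2 for the interaction (7.42%), 1 averaged over stress (6.07%), and 0 in the other comparisons (1.73% and 1.66%). Gjc1, a connexin of vessels and other cells, varied little, from 67.6 to 115 normalized counts. Panx1, a pannexin that forms channels without docking, had 393.6 ± 16.8 in GFP stress (n = 8) and 432 ± 20.2 in ZBTB7A stress (n = 5), a log2 difference of 0.14 ± 0.06 (adjusted p = 0.303). The other 9 connexins were too low to be tested, with mean normalized counts of 0.055 to 3.70.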

How the data were processed

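The values were normalized gene counts from 23 libraries, deposited by the authors as a signal: reads divided by 1 size factor per library, with no correction for gene length. Tools named in the submitters' processing notes are HISAT2 2.1.0, DESeq2 2.11.40.6 and featureCounts 2.0.1, and the same notes list mm10 beside mm9 and do not say what each was used for. Per the labels, TruSeq v2 libraries were made from Trizol-extracted, column-cleaned RNA. Counting of overlapping genes is not given in the sources used here. All values came out as whole reads (100% within 0.02 reads) once the factor was removed. After 428 identical repeats were dropped, 16385 of 27178 genes had a value of 10 or more in at least 5 libraries and were tested.

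A limma fit (R 4.3.3, limma 3.58.1, trended and robust) of log2(normalized count + 1) on 4 group means gave 6 two-sided contrasts, adjusted by Benjamini-Hochberg over all tested genes. Errors are SD for levels and SE for log2 differences. Correlations used 100000 two-sided permutations, adjusted over the 8 genes or the 28 pairs. Alternatives included count tests of the recovered reads (DESeq2 1.42.0, edgeR 4.0.16). The limma test was run on simulated counts drawn separately for each gene. Those counts lacked the variation in marker levels that genes share between these libraries, so that check does not cover it. The 8 genes, the lists and the tests were chosen with earlier results of these data known. Named beside them are Gjc1 and Panx1 in any case, other gap junction genes only if they passed, and the 3 genes most like each by r. An item that this rule takes is not reported here. All 100 marker symbols matched, and Ccn3 among the partners was matched by its RefSeq identifier. Coordinates come from GENCODE for GRCm38 and promoters from RefSeq, not from the deposited values. Tables and figures were made with Python 3.11.15, pandas 2.3.3, numpy 2.4.6 and matplotlib 3.10.9.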

Additional observations from a re-analysis of the deposited data

Results flagged for a closer look

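For each gene in each group, 32 sets in all, the gap of the highest or lowest library to its nearest neighbour was divided by the range of the group. In 2 sets that share passed Dixon's 95% critical value, and chance alone gives about 1 in 20. Gja1 in GFP stress 13, at 4929 normalized counts, stood above the other 7 libraries of its group, with a gap of 0.579 of the range. Gjd2 in ZBTB7A control 24, at 151 normalized counts, stood above the other 4, with a gap of 0.723 of the range.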

How the results depend on the processing

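The count of connexins past the test stayed at 0 in all comparisons and alternatives except with DESeq2, which gave 1 for the vector with stress (Gja5, 1.68). Gja5 has a mean of 13.9, so it was not tested where a mean of 50 or more was required. DESeq2 also gave it no adjusted p for the vector averaged over stress. Leaving out each library in turn gave 1.37 to 1.72 for Gja5 between the stressed groups, with adjusted p from 0.0517 to 0.517. Since no connexin passed the limma test in any comparison, none of the group differences that changed sign could have passed it. The cause of each change was not tested. No paired analysis was possible because no number in the titles is shared between groups. Over all genes, leaving out each library in turn gave counts past the test of 0 to 79 for the interaction, the highest without ZBTB7A control 6, and of 0 to 3 for the vector with stress, the highest without GFP stress 13. DESeq2 called 46 for the vector with stress. Few reads limit Gja5, and groups of 5 to 8 limit all comparisons. The fit without 5 libraries and the mural covariate were chosen after seeing the data. That fit left out GFP stress 5, 12, 20 and 21 and ZBTB7A control 6, and no ZBTB7A stress library.

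Log2 differences that turned are given by setting. With the oligodendrocyte level they were, for the vector without stress, 0.064 (Gjc3), 0.070 (Gjb1) and -0.064 (Gjb2), with stress -0.065 (Gjb1), averaged -0.033 (Gja1), for stress under GFP 0.015 (Gjc3) and 0.19 (Gjb1), under ZBTB7A -0.012 (Gjc3), 0.064 (Gjb2) and -0.023 (Gja1), and for the interaction -0.028 (Gjc3), -0.14 (Gjb1) and 0.18 (Gjb6). With the striatal level they were, for the vector with stress, -0.015 (Gjb1) and 0.0033 (Gjb6), averaged -0.064 (Gjb1) and -0.045 (Gja1), for stress under ZBTB7A -0.023 (Gjc3), 0.14 (Gjb2) and -0.032 (Gja1), and for the interaction 0.20 (Gjb6). Without the 5 libraries far in striatal level they were -0.0063 (Gja4, vector without stress), 0.011 (Gjb6, vector with stress), -0.087 (Gjc3), -0.22 (Gjb1) and -0.074 (Gja1) averaged, 0.024 (Gjb1) and -0.023 (Gjd2) for stress under GFP, and 0.14 (Gjb6) for the interaction. With the mural level they were -0.083 (Gjb2, vector with stress), -0.0071 (Gja1, averaged), 0.093 (Gjb2, stress under GFP), -0.055 (Gja4, stress under ZBTB7A) and -0.27 (Gjb2, interaction). With DESeq2 they were -0.0037 (Gja4, vector without stress), -0.00037 (Gja1, averaged) and -0.038 (Gjb2, interaction), with edgeR -0.056 (Gjb2, interaction), and with the number run -0.013 (Gja4, vector without stress) and -0.0026 (Gja1, stress under ZBTB7A).

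With each library left out, ranges that spanned 0 were, for the vector without stress, -0.27 to 0.013 (Gjc3), -0.48 to 0.052 (Gjb1), -0.085 to 0.11 (Gja4), -0.11 to 0.052 (Gjd2) and -0.092 to 0.24 (Gjb2). Averaged over stress Gja1 ran from -0.051 to 0.045, and for stress under GFP Gjb6 ran from -0.17 to 0.0062. For stress under ZBTB7A the ranges were -0.031 to 0.085 (Gja4), -0.19 to 0.13 (Gjb2) and -0.048 to 0.12 (Gja1), and for the interaction -0.13 to 0.040 (Gjb6) and -0.070 to 0.30 (Gjb2). The correlation with marker lists ran from -0.021 (without GFP stress 22) to 0.26 for Gjb6 and from 0.36 to 0.65 for Gjd2. That of Gjd2 was 0.27 without the 2 farthest libraries, and that of Gja4 was 0.63 with values centred within groups.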
